A study of Mus musculus with 16 samples.

Results

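The caveola coat is built from 10 genes in the mouse: the caveolins Cav1, Cav2 and Cav3, the cavins Cavin1, Cavin2, Cavin3 and Cavin4, the membrane-bending ATPase gene Ehd2, and the F-BAR protein genes Pacsin2 and Pacsin3. They were taken by symbol from a table of 54838 gene identifiers and followed across 16 RNA-seq samples of C57BL/6 mouse spleen. In 8 size-selected samples, spleens had been minced, digested with enzymes and freed of red cells, and the material that a strainer held back was lysed. The other 8 samples are whole spleen, for which the labels repeat that protocol and describe no separate preparation. Each group holds the numbers 407, 408, 427 and 435, which are male, and 436, 445, 447 and 460, which are female. The series was made to find genes enriched in spleen glia, and its labels give strain, tissue and sex but neither a transgene nor a treatment. The labels do not say whether samples with the same number, or different numbers, came from separate animals, so p-values measure the spread between these samples, which may be partly technical.

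Caveolae are small flask-shaped pits of the plasma membrane, abundant in endothelial cells, smooth muscle, fibroblasts and fat cells. Caveolins sit in the inner leaflet of the membrane, cavins assemble around them as a cytoplasmic coat, EHD2 forms a ring at the neck that holds the pit at the surface, and pacsins (syndapins) shape its curvature. CAV3 and CAVIN4 are the muscle forms of their families. In spleen, the cells lining the vessels and sinuses are a known site of caveolae.

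Of the coat genes, 9 had at least 1 count in some sample and 8 passed the filter on low counts. All 8 were higher in the size-selected samples than in whole spleen by edgeR's quasi-likelihood test with Benjamini-Hochberg adjustment over 14510 genes. Of all genes tested, 67.9% were called in either direction, 37.5% higher and 30.4% lower. Pacsin3, with 2 to 9 counts per whole spleen sample, passed the filter through the size-selected samples, so these counts are a description. In 7 of the 8 (all but Pacsin2) no size-selected sample overlapped a whole spleen sample with the size-selected group above, which held for 23.4% of all genes tested. The log2 fold changes of the 8 had a median of 4.00, against 0.05 over all genes tested, and ran from 5.18 for Cavin1 to 0.51 for Pacsin2. Levels below are CPM, counts scaled to a common library size by TMM, and a fold change is size-selected over whole spleen.

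The plot of levels by fraction shows the separation and its exception.

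**Figure D1:**
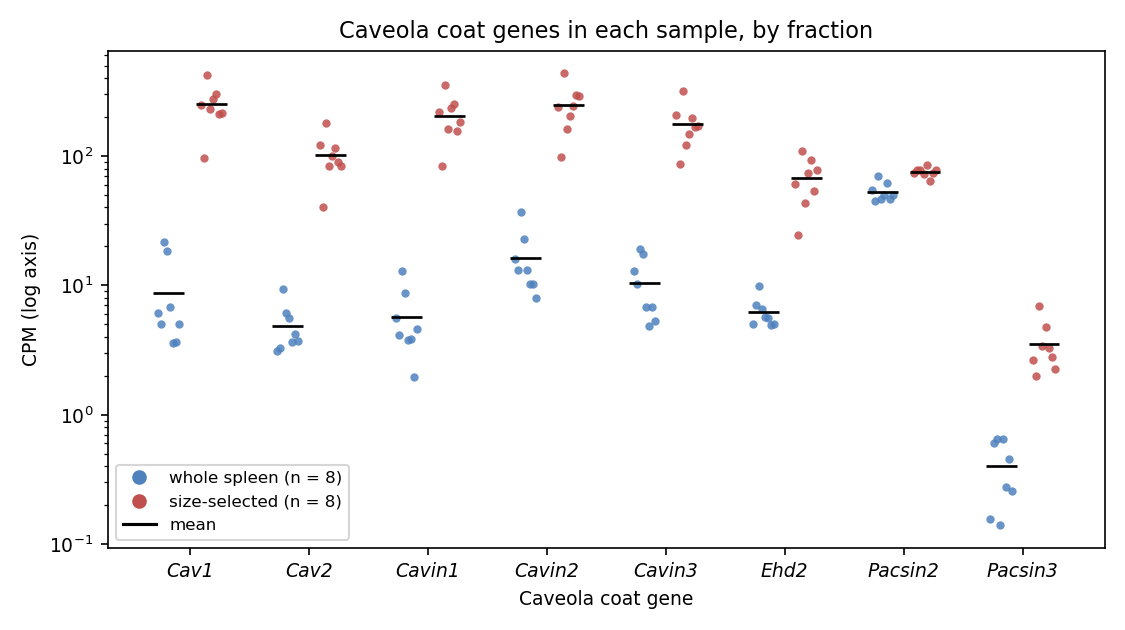
Level of the 8 tested coat genes in CPM (log axis) in each whole spleen sample (blue) and each size-selected sample (red), with black bars at the group means. The red points lie above the blue ones for every gene but Pacsin2, whose size-selected samples (63.8 to 84.7 CPM) overlap the whole spleen samples (44.8 to 69.5 CPM).

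The samples were not pure preparations of one cell type. Library totals were 12153770 to 16282454 counts in whole spleen and 13119992 to 19944440 among the size-selected samples. Of the glial markers 5 of 5 tested were called higher after size selection, with a median log2 fold change of 7.87, and so were 7 of 7 endothelial, 7 of 7 smooth muscle and pericyte, 6 of 6 fibroblast and 4 of 4 mesothelial markers. In whole spleen the 6 glial markers summed to only 0.622 to 2.86 CPM and the mesothelial ones to 0.229 to 2.04 CPM, so such genes passed the count filter largely through the size-selected samples, 1 glial marker did not pass, and these counts are a description. All 4 B cell, 4 T cell and 4 neutrophil markers were called lower. Of 5 macrophage markers 3 were called higher and 0 lower (sums of 2747 to 6172 CPM against 1167 to 2282 CPM), and of 4 erythroid markers 2 were called lower. The summed level ran from 770 to 1961 CPM for the endothelial list in the size-selected samples and from 81 to 197 in whole spleen. For the smooth muscle and pericyte list the ranges were 669 to 3353 and 6.01 to 68.2 CPM, and for the fibroblast list 1003 to 3485 and 4.67 to 55.6 CPM. Adipocyte markers summed to only 0 to 4.42 CPM in the size-selected samples and 0 to 0.412 CPM in whole spleen, and 0 of 5 passed the count filter. The part of these cell types in the rise of the coat genes was not tested. In bulk samples like these, more cells of a type and more RNA per cell cannot be told apart.

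The start regions of 4 coat genes are shown because their promoters can be set beside the sizes of the changes: Cav1, Cav2 and Cavin2 had log2 fold changes of 3.92 or more, and Pacsin2 had the smallest. Each line gives the 250 bases that end at the base before the RefSeq transcription start on GRCm38.p6, read 5′ to 3′ on the gene's strand. The RefSeq promoter table had an entry for 9 of the 10 genes, all but Cavin3. The windows of Cavin1, which had the largest change, and of Ehd2 reach into exons of the GENCODE annotation and are not printed, nor are those of the low genes Cav3, Cavin4 and Pacsin3. Capitals mark matches, on either strand, to the motifs found in these windows, which are spelled out after the lines.
Cav1, chr6:17306085-17306334, plus strand: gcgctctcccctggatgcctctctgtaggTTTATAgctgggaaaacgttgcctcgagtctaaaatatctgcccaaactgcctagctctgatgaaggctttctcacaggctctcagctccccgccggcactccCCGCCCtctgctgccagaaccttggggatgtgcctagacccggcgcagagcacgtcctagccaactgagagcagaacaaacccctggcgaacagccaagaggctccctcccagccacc
Cav2, chr6:17280935-17281184, plus strand: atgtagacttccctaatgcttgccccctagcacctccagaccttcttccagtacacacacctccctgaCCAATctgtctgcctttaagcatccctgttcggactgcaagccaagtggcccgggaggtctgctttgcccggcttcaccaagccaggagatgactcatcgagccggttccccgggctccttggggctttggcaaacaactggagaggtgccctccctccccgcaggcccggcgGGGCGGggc
Cavin2, chr1:51288876-51289125, plus strand: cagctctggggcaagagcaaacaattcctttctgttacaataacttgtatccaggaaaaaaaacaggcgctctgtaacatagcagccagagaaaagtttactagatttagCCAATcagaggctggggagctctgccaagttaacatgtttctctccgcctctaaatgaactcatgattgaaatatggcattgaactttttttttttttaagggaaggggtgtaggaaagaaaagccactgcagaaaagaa
Pacsin2, chr15:83464607-83464856, minus strand: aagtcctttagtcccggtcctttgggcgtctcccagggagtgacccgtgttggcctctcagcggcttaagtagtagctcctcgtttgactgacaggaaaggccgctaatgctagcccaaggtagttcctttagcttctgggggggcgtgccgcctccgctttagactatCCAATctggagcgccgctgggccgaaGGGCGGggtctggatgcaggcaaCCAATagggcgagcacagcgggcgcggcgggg

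The Cav1 window held 1 GC box and 1 TATA box match, and the Cav2 window 1 GC box and 1 CCAAT match. In the Cavin2 window there was 1 CCAAT match, and in the Pacsin2 window 1 GC box and 2 CCAAT matches. Across 32851 windows of the same length in the RefSeq table, 32.7% held a GC box (GGGCGG), 33.8% held the letters of the CCAAT box and 12.4% held a TATA box (TATAAA). An ETS core (AGGAAG, in 29.5% of windows), a GATA site (AGATAA, in 9.99%) and a CArG box (in 1.47%) were also searched on both strands, and these 4 windows held none of their letters. GC content was 59.6% for Cav1, 62% for Cav2 and for Pacsin2, and 40.4% for Cavin2, beside a median of 52.4% over all windows. These matches describe the letters and say nothing of binding.

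Caveolin-1, the protein without which most non-muscle cells form no caveolae, is encoded by Cav1 (ENSMUSG00000007655, GRCm38 chr6:17306335-17341452, plus strand). The size-selected samples held 249, 95.6, 424 and 230 CPM of Cav1 in the males 407, 408, 427 and 435, and 278, 302, 211 and 214 CPM in the females 436, 445, 447 and 460. In whole spleen the same numbers held 6.07, 5.03, 21.5 and 18.5 CPM, then 6.83, 3.57, 3.66 and 5.07 CPM. The groups were far apart, with 408 the lowest size-selected sample and 427 and 435 above the other 6 whole spleen samples. Cav1 averaged 251 ± 93.2 CPM (SD, n = 8) against 8.77 ± 7.04 CPM (SD, n = 8), which is 4.84 on the log2 scale (SE 0.42, edgeR adjusted p = 9.95e-09), or 28.7-fold. With whole spleen 427 and 435 left out, a choice made after seeing the data, the fold was 50.6, and with 427 alone left out it was 35.8.

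Caveolin-2, which depends on caveolin-1 to reach the cell surface and joins it in hetero-oligomers, is encoded by the neighbouring gene. Cav2 (ENSMUSG00000000058, chr6:17281185-17289115, plus strand) ends 17219 bases before Cav1 starts. Its level was 121, 40.6, 179 and 83.1 CPM in the size-selected males, in the same order of numbers, and 99.3, 115, 90.2 and 83.6 CPM in the females. Whole spleen held 3.11, 3.28, 9.3 and 6.09 CPM in the males and 5.61, 3.64, 4.18 and 3.73 CPM in the females. No sample of either group came near the other, and 408 and 427 were again the lowest and the highest size-selected sample. The means were 102 ± 39.9 and 4.87 ± 2.09 CPM (SD, n = 8 each), and differed by 4.38 on the log2 scale (SE 0.29, edgeR adjusted p = 4.78e-10). An antisense gene, Gm15581, spans both caveolin genes but shares no exon base with them and had 0 to 3 counts per sample.

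The muscle caveolin Cav3 (ENSMUSG00000062694, chr6:112459505-112472872, plus strand) was near the limit of detection and did not pass the filter on low counts. The size-selected samples held 9, 6, 8 and 8 counts in the males and 9, 6, 1 and 12 in the females, 59 in all. Whole spleen held 1 count in all, in sample 435. Relative to library totals, the size-selected total was 55.7 times that of whole spleen, with a 95% exact interval of 9.61 to 2237 that covers counting error only. With no count filter, edgeR called Cav3 higher (adjusted p = 1.33e-05), as it did 25.3% of the genes tested that way. Single samples overlapped: size-selected 447 had 0.0665 CPM and whole spleen 435 had 0.07 CPM. Skeletal muscle markers were low too, summing to 0.623 to 7.37 CPM in the size-selected samples and 0.163 to 0.642 CPM in whole spleen, with Myh4 and Myog at 0 in all 16 samples. Cardiac muscle markers summed to 0.969 to 20 CPM and 0 to 0.233 CPM. Whether Cav3 moved with either was not tested.

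Cavin-1 is the core of the cavin coat, and caveolae do not form without it. Cavin1 (ENSMUSG00000004044, chr11:100956733-100970887, minus strand) held 217, 83.1, 354 and 161 CPM in the size-selected males and 235, 252, 155 and 183 CPM in the females. Whole spleen held 5.6, 4.12, 12.8 and 8.75 CPM in the males and 3.81, 3.85, 1.96 and 4.63 CPM in the females. Every size-selected sample lay above every whole spleen sample, with 408 lowest and 427 highest among the size-selected samples and 447 lowest in whole spleen. On the log2 scale its change of 5.18 (SE 0.36, edgeR adjusted p = 8.22e-10) was the highest of the tested coat genes, from 205 ± 80.4 CPM against 5.69 ± 3.48 CPM (SD, n = 8 each). Of all genes tested, 4.53% had a larger log2 fold change.

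Cavin-2, which binds phosphatidylserine and helps tubulate caveolar membrane, is also known from platelets. Cavin2 (ENSMUSG00000045954, chr1:51289126-51302960, plus strand) held 238, 98.3, 435 and 162 CPM in the size-selected males and 203, 245, 298 and 290 CPM in the females. Whole spleen held 15.9, 13.1, 37 and 22.8 CPM in the males and 13.1, 10.2, 10.3 and 7.97 CPM in the females. Here too the groups did not overlap, and 427 was highest in both. Cavin2 averaged 246 ± 101 CPM against 16.3 ± 9.51 CPM (SD, n = 8 each), which is 3.92 on the log2 scale (SE 0.34, edgeR adjusted p = 9.31e-09). All 5 megakaryocyte markers were called higher as well, with a median log2 fold change of 1.57, and summed to 89.4 to 618 CPM in the size-selected samples and 53.9 to 195 CPM in whole spleen. Their part in the Cavin2 level was not tested.

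Cavin-3, which binds protein kinase C delta and cavin-1, comes from a short gene, Cavin3 (ENSMUSG00000037060, chr7:105480083-105482300, minus strand). The size-selected males held 206, 86.2, 318 and 121 CPM and the females 149, 197, 168 and 169 CPM. In whole spleen the males held 12.8, 10.2, 19.1 and 17.6 CPM and the females 6.83, 4.88, 6.79 and 5.33 CPM. The fractions were fully separated. In whole spleen the males also lay above the females, and how many of all genes separate this way was not counted. Cavin3 averaged 177 ± 68.9 CPM against 10.4 ± 5.55 CPM (SD, n = 8 each), which is 4.09 on the log2 scale (SE 0.32, edgeR adjusted p = 3.71e-09). A gene on the opposite strand, Gm45667, shares 374 exon bases with it and had 0 to 5 counts per sample, and whether the counting used strand is not given in the sources used here.

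Cavin-4 is the cavin of striated muscle. No count fell on Cavin4 (ENSMUSG00000028348, chr4:48663514-48673502, plus strand) in any of the 16 samples, of 241113467 counts in all. At these depths a count of 0 allows up to 3 counts in a library, which is 0.15 to 0.247 CPM.

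EHD2 is the ATPase of the caveolar neck. Ehd2 (ENSMUSG00000074364, chr7:15946958-15967567, minus strand) held 61.2, 24.7, 110 and 43 CPM in the size-selected males and 73.5, 93.7, 53.8 and 77.6 CPM in the females. Whole spleen was narrow, with a lowest, median and highest level of 4.9, 5.62 and 9.87 CPM. The groups did not overlap, at 67.2 ± 27.5 CPM against 6.23 ± 1.66 CPM (SD, n = 8 each). The log2 fold change was 3.43 (SE 0.26, edgeR adjusted p = 2.13e-09).

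Pacsin-2 also works outside caveolae, in endocytosis and actin control, and it was the exception among the tested coat genes. Pacsin2 (ENSMUSG00000016664, chr15:83375607-83464606, minus strand) held 73.9, 78.1, 77.6 and 73.1 CPM in the size-selected males and 84.7, 63.8, 73.6 and 77.5 CPM in the females. Whole spleen held 54.4, 44.8, 69.5 and 46.7 CPM in the males and 49.5, 62.2, 46.4 and 50.2 CPM in the females. In the deposited counts the groups overlapped, since size-selected 445 lay below whole spleen 427, yet the size-selected sample was the higher in 8 of 8 numbers. Pacsin2 averaged 75.3 ± 5.94 CPM against 53 ± 8.72 CPM (SD, n = 8 each), which is 0.51 on the log2 scale (SE 0.10, edgeR adjusted p = 0.000124). Of all genes tested, 34.1% had a larger log2 fold change than Pacsin2.

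Pacsin-3 is the pacsin most abundant in muscle. Pacsin3 (ENSMUSG00000027257, chr2:91255954-91264679, plus strand) was low in both fractions: 2.63, 2.01, 6.87 and 3.42 CPM in the size-selected males and 4.79, 3.29, 2.79 and 2.26 CPM in the females. Whole spleen ran from 0.14 to 0.653 CPM with a median of 0.366 CPM, from 2 to 9 counts per sample. The groups did not overlap, at 3.51 ± 1.61 CPM against 0.399 ± 0.219 CPM (SD, n = 8 each), which is 3.12 on the log2 scale (SE 0.36, edgeR adjusted p = 4.35e-07). Since Pacsin3 passed the filter through the size-selected samples, this p is given as a description. Gm17281, on the opposite strand, shares 42 exon bases with it and had 0 to 5 counts per sample.

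The deposited size-selected values of some of these genes carry a multiplication that no label or header mentions. In 3898 genes of the table, the size-selected values are 2-decimal estimates multiplied by 1 to 3 constants per column, between 0.659 and 0.964, and no whole spleen value is. Cav1, Cav2, Cavin1 and Pacsin2 carry a pair of these constants, Cavin2, Cavin3 and Ehd2 carry 1, and Pacsin3, Cav3 and Cavin4 carry none. With the constants divided out (restored counts), the log2 fold changes were 5.22 for Cav1, 4.76 for Cav2, 5.56 for Cavin1 and 0.88 for Pacsin2, and 4.00, 4.17, 3.52 and 3.06 for Cavin2, Cavin3, Ehd2 and Pacsin3. All 8 genes stayed called, and Pacsin2 kept the smallest value. Its groups, which overlap in the deposited counts, did not overlap in the restored ones, at 87.3 to 108 CPM in the size-selected samples and 43.9 to 68.1 CPM in whole spleen.

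**Figure D2:**
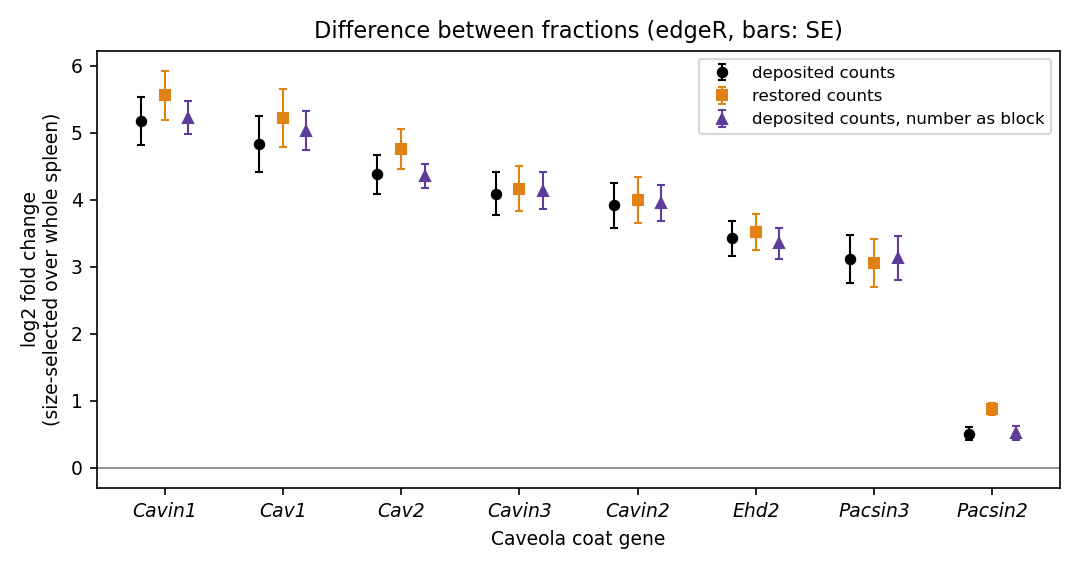
Log2 fold change of each tested coat gene between fractions, with SE bars, from deposited counts (black circles), restored counts (orange squares) and deposited counts with the sample number as a block (purple triangles). Pacsin2 stands apart at 0.51 to 0.88, and the other 7 genes lie between 3.06 and 5.56.

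In the authors' deposited table of 2201 genes, whose smallest log2 fold change is 3.5, 6 of the coat genes are listed, the cavins under older symbols. The log2 fold changes in the authors' deposited table are 5.15 for Cavin1 (Ptrf), 4.80 for Cav1, 4.76 for Cav3, 4.38 for Cav2, 4.09 for Cavin3 (Prkcdbp) and 3.93 for Cavin2 (Sdpr). Cav3 is listed in the authors' deposited table with group means of 0.593 and 0.0075 TPM.

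Levels can be set against each other only per length, so TPM, which divides by length and scales to a common total, was computed from the deposited counts and the union of each gene's exons. In the size-selected samples Cavin3 was highest at 294 ± 95.3 TPM (SD, n = 8), above Cavin2 in 8 of 8 samples, and with restored counts it was above the next gene, Cav1, in 6 of 8. Cavin2 at 224 ± 81.2 TPM was above Cav1 at 202 ± 64.4 TPM in only 5 of 8 samples, and with restored counts Cav1 came second at 251 ± 82.5 TPM, so this pair has no settled order. Cavin2 was above Cavin1 in only 5 of 8 samples with restored counts. The authors' deposited table gives another order of its TPM group means, with Cav1 (184) above Cavin3 (160), so the first place is not settled either. Cav1 was above Cavin1 (158 ± 53.6 TPM) and Cavin1 above Cav2 (84.1 ± 27.6 TPM) in 8 of 8 samples. Cav2 was above Pacsin2 (43.3 ± 4.95 TPM) in 7 of 8 samples, and Pacsin2 above Ehd2 (36.5 ± 13.7 TPM) in 6 of 8. Pacsin3 at 2.25 ± 0.897 TPM and Cav3 at 1.09 ± 0.405 TPM were lowest among the detected genes.

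Whole spleen had another order. Pacsin2 led at 24.2 ± 5.29 TPM (SD, n = 8), above Cavin3 (13.8 ± 7.06 TPM) in 7 of 8 samples, and Cavin3 was above Cavin2 (11.8 ± 7.17 TPM) in 5 of 8. Cav1 followed at 5.59 ± 4.47 TPM, then Cavin1 at 3.51 ± 2.2 TPM, Cav2 at 3.27 ± 1.48 TPM and Ehd2 at 2.72 ± 0.787 TPM. Cavin1 and Cav2 had no settled order, with Cavin1 higher in 5 of 8 samples, while the authors' deposited table has Cav2 (1.86 TPM) above Cavin1 (1.65 TPM). Within the families, Cav1 made up 70.2 ± 2.16% of caveolin TPM in the size-selected samples and 59.2 ± 9.81% in whole spleen (SD, n = 8 each). Cavin1 made up 23.5 ± 3.7% of cavin TPM in the size-selected samples (27.4 ± 4.07% with restored counts) and 12.1 ± 3.36% in whole spleen. In the deposited counts its ranges of 17.9 to 29.5% and 6.84 to 18.1% just overlapped.

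Whether the other coat genes moved as far as Cav1 was tested on the log2 CPM ratio of each gene to Cav1, by an exact two-sided permutation test over the 16 samples, adjusted over 14509 genes. The ratio fell in the size-selected samples for 6 of the 7 other tested coat genes. Pacsin3 is among the 6 and passed the count filter through the size-selected samples, so this count is a description. Because Cav1 itself moved far, the ratio also fell for 93.4% of all genes, rose for 1.36% and was called in either direction for 94.7%. The count thus says little about the coat genes as such. Cavin1 was the one not called: its ratio changed by 0.19 (95% interval -0.15 to 0.55, exact permutation adjusted p = 0.25), and in whole spleen the ratio averaged -0.49 ± 0.43 against -0.29 ± 0.12 (SD, n = 8 each). That interval bounds the difference and does not show that Cav1 and Cavin1 moved alike.

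The ratio of Cav2 to Cav1 changed by -0.70 (95% interval -1.17 to -0.23, exact permutation adjusted p = 0.00874), lower in 7 of 8 numbers. For Cavin3 the change was -0.89 (-1.33 to -0.44, exact permutation adjusted p = 0.000355) and for Cavin2 -1.08 (-1.52 to -0.64, exact permutation adjusted p = 0.0007). Both of these ratios were lower in 8 of 8 numbers. Ehd2 changed by -1.72 (-2.31 to -1.11), Pacsin3 by -2.25 (-3.14 to -1.32) and Pacsin2 by -4.52 (-5.37 to -3.67) relative to Cav1. Pacsin3 had 2 to 9 counts per whole spleen sample and passed the filter through the size-selected samples. Its change and interval are thus a description, and its ratio was lower in 7 of 8 numbers. With restored counts the changes of genes that carry other constants than Cav1 were larger, at -1.19 for Cavin3, -1.37 for Cavin2, -2.02 for Ehd2 and -2.67 for Pacsin3, and the same 6 genes were called.

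**Figure D3:**
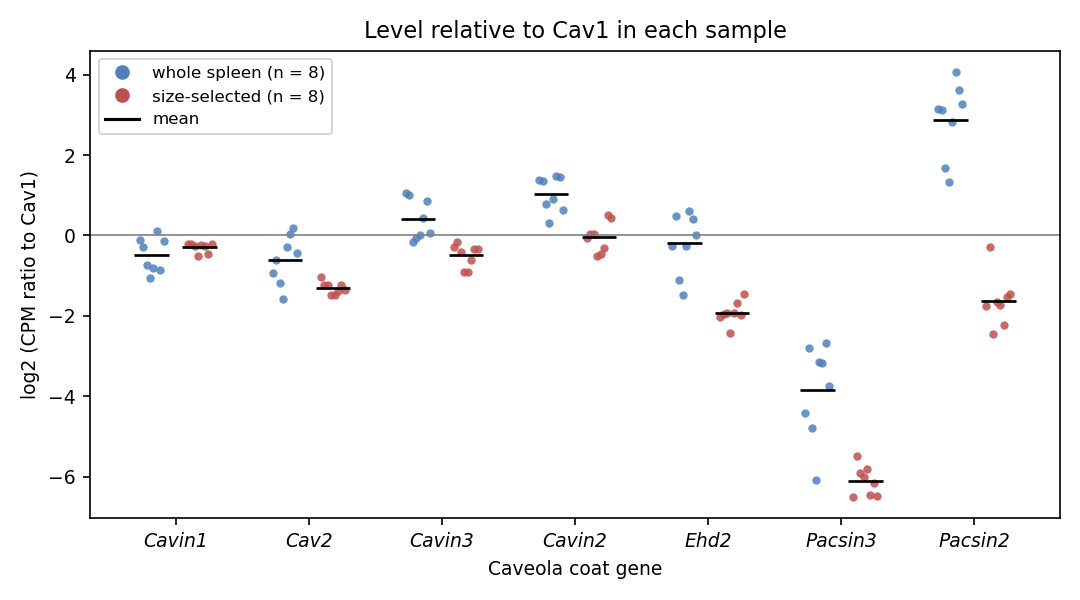
Log2 ratio of each coat gene's CPM to that of Cav1 in each whole spleen sample (blue) and size-selected sample (red), with black bars at the group means. Only the shift between colours can be read, since CPM does not correct for gene length: it is 0.19 for Cavin1 and reaches -4.52 for Pacsin2.

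Samples of a fraction held different levels of the coat genes. Among the size-selected samples, 427 was highest for 7 of the 8 tested genes and 408 lowest for 7, in both cases all but Pacsin2. In whole spleen, 427 was highest for 8 of 8 genes, and 435 was second for Cav1, Cav2, Cavin1, Cavin2 and Cavin3 but lowest for Pacsin3 (0.14 CPM). The lowest whole spleen sample differed by gene and fell on 6 numbers. Whether the coat genes vary together was not tested. The ratio of the highest to the lowest size-selected sample was 4.43 for Cav1, 4.42 for Cav2, 4.26 for Cavin1 and 4.45 for Ehd2, and 1.33 for Pacsin2. Size-selected 408 had the lowest endothelial (770 CPM), smooth muscle and pericyte (669 CPM) and fibroblast (1003 CPM) sums. It was also lowest for mesothelial (14.7 CPM), macrophage (2747 CPM), skeletal muscle (0.623 CPM) and cardiac muscle (0.969 CPM) markers. For B cell (2119 CPM) and T cell (226 CPM) markers it was second highest. Size-selected 427 had the highest endothelial (1961 CPM) and smooth muscle and pericyte (3353 CPM) sums, while 436 was highest for fibroblast markers (3485 CPM, against 3025 CPM in 427) and 445 for mesothelial ones (128 CPM, against 57.5 CPM in 427). Size-selected 427 was lowest for B cell (646 CPM) and T cell (43.3 CPM) markers. Whole spleen 427 was highest for endothelial, smooth muscle and pericyte, and fibroblast markers, at 197, 68.2 and 55.6 CPM, and for macrophage markers (2282 CPM). Whole spleen 435 was second for smooth muscle and pericyte markers at 40.2 CPM. It was behind 445 and 427 for endothelial markers at 104 CPM, and at 16 CPM for fibroblast markers, below 427, 436 and 407. For neutrophil and erythroid markers, whole spleen 435 was highest and 427 second. The part of these cell types in the order of the coat genes was not tested. Without size-selected 408, a choice made after seeing the data, the log2 fold changes were 4.96 for Cav1, 5.30 for Cavin1 and 3.56 for Ehd2.

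**Figure D4:**
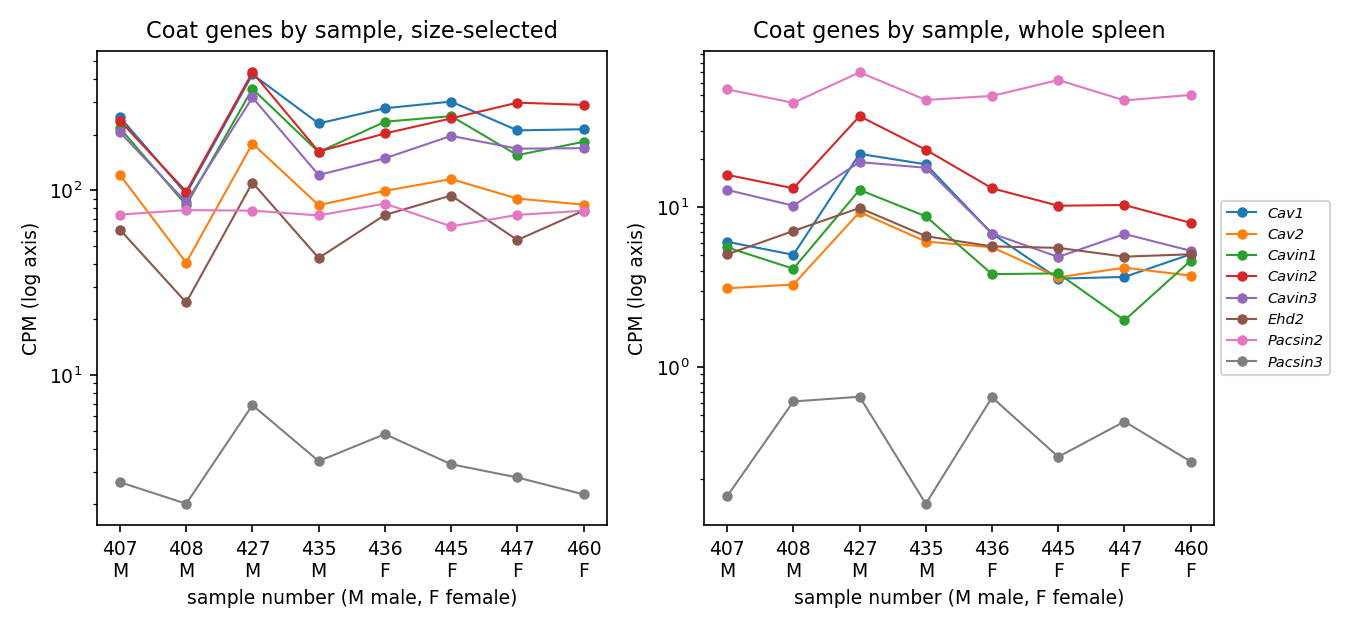
CPM (log axis) of the 8 tested coat genes in each sample number, size-selected on the left and whole spleen on the right, with M for male and F for female. Lines join the values of 1 gene across numbers, which have no order, and show 427 high in both fractions, 408 low among the size-selected samples and Pacsin2 nearly flat.

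Sex is the other factor of the labels. In whole spleen, 1 of the 7 coat genes tested was called between the sexes, against 0.194% of 13383 genes. That gene was Cavin3, at 5.96 ± 1 CPM (SD, n = 4; 4.88 to 6.83) in females and 14.9 ± 4.15 CPM (SD, n = 4; 10.2 to 19.1) in males. The log2 difference, female minus male, was -1.33 (SE 0.24, edgeR adjusted p = 0.0495). Cav1 (-1.43, edgeR adjusted p = 0.159), Cavin2 (-1.11, edgeR adjusted p = 0.117) and Cavin1 (-1.14, edgeR adjusted p = 0.173) did not pass. Their unadjusted edgeR p were 0.00628, 0.00242 and 0.00925 in that order, and 9.61e-05 for Cavin3. Of the 13383 genes, 2149 had an unadjusted p under 0.05. The sexes overlapped for Cav1 and Cavin1, and for Cavin2 the lowest male and the highest female were both at 13.1 CPM.

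The Cavin3 call is at the edge of the threshold. It was lost without number 407 (adjusted p = 0.0757), 435 (0.126), 445 (0.186), 447 (0.15) or 460 (0.14), and with library totals as the scaling (0.0677) or limma-voom (0.0644). With no count filter, and by DESeq2, 3 coat genes were called: Cav1, Cavin2 and Cavin3. These settings also called more genes in all, 1.13% with no filter and 3.89% by DESeq2. Megakaryocyte markers summed to 99.7 to 195 CPM in whole spleen of males and 53.9 to 79.7 CPM in females. B cell markers summed to 3863 to 5007 CPM in males and 3494 to 3813 CPM in females, so the sexes did not overlap for these 2 of the 14 marker lists. The male samples 427 and 435 had the highest smooth muscle and pericyte sums. Their part in the difference between the sexes was not tested.

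In the size-selected samples 0 of 8 coat genes were called between the sexes by edgeR, where 0.0397% of 15127 genes were. Of the 8, 0 had an unadjusted p under 0.05, which 632 of the 15127 genes had. DESeq2 also called 0 of them. Cavin3 averaged 183 ± 103 CPM in males and 171 ± 19.5 CPM in females (SD, n = 4 for either sex), with males 408 and 427 at the extremes. The interaction of sex and fraction called 0 of 8 coat genes and 0% of 15760 genes by edgeR, with 744 genes at an unadjusted p under 0.05. Among those were Cav1, Cavin2 and Cavin3. For Cavin3 the interaction was 1.23 (SE 0.44), with an edgeR adjusted p of 1, so its difference between the sexes in whole spleen was not shown to differ from that in the size-selected samples. With the number as a block the Cavin3 interaction was 1.35 (SE 0.314, edgeR adjusted p = 0.521). Cav1, Cavin1 and Cavin2 were not called under the block either, at edgeR adjusted p of 0.542, 0.494 and 0.494. DESeq2 called 3 genes and 0 coat genes.

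Other proteins of the pathway were followed in fixed lists. Proteins found in or tied to caveolae, 14 genes from the endothelial nitric oxide synthase Nos3 to the scavenger receptors Cd36 and Scarb1, had 13 called higher and 0 lower, beside 37.5% and 30.4% of all genes tested, with a median log2 fold change of 3.23. The 3 with the largest values in the deposited counts were Ror1, a receptor-like kinase that scaffolds cavin-1 and caveolin-1, at 5.94 (SE 0.41), Abcc9, the regulatory subunit of a potassium channel, at 5.76 (SE 0.35), and Cdh13, a GPI-anchored cadherin, at 5.24 (SE 0.73), with edgeR adjusted p of 8.55e-10, 2.03e-10 and 4.01e-06. Ror1, Cdh13 and the glucose transporter gene Slc2a4, at whole spleen means of 0.233, 0.507 and 0.546 CPM, passed the count filter through the size-selected samples, so the count and median of this list are a description. Cdh13 rested in part on whole spleen 427, without which its log2 fold change was 6.78, above the 5.95 of Ror1, so the order of the 3 is not settled. Nos3 had nearly the same value as Cdh13, at 5.22 (SE 0.34). The gene not called was Fyn, a Src family kinase, at -0.23 (edgeR adjusted p = 0.45). Fyn, Nos3 and Slc2a4 were named with values after these were seen.

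Relatives of EHD2 and the pacsins, with the dynamins that cut membrane necks, had 7 of 8 called higher and 1 lower, beside the same 37.5% and 30.4% of all genes, with a median log2 fold change of 1.15. Dnm1 led at 3.92 (SE 0.48, edgeR adjusted p = 7.48e-07), then Dnm3 at 3.0 (SE 0.48, edgeR adjusted p = 2.36e-05) and Nostrin, an F-BAR protein that traffics nitric oxide synthase, at 2.27 (SE 0.24, edgeR adjusted p = 1.37e-07). Levels of Dnm1 were 7.26 ± 4.55 CPM against 0.475 ± 0.375 CPM (SD, n = 8 each), so it too passed the filter through the size-selected samples. Dnm3 was also low in whole spleen, at 8.12 ± 4.31 CPM against 1.02 ± 0.854 CPM (SD, n = 8 each). The count and median of this list, and the p of Dnm1 and Dnm3, are thus a description. The gene called lower was Pacsin1, the neuronal pacsin, at -1.22 (SE 0.28, edgeR adjusted p = 0.000854), named after its value was seen. The 3 pacsin genes thus gave values of -1.22, 0.51 and 3.12.

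Membrane domains and coats of other kinds were followed as well. Both flotillins, which mark caveolin-free domains, were called higher, Flot2 at 1.83 and Flot1 at 1.72 (SE 0.16 each). Of 8 genes of the clathrin coat and its AP-2 adaptor, 4 were called higher and 2 lower, with a median log2 fold change of 0.20. These shares lie near the 37.5% and 30.4% of all genes tested, so they say little about the clathrin list. With library totals as the scaling 5 were called higher, and with no count filter 3 were. Cltb rose by 1.04 (SE 0.13), while Ap2s1 fell by 0.86 (SE 0.09) and Clta fell by 0.69 (SE 0.09) on the log2 scale, with edgeR adjusted p of 1.38e-06, 1.62e-07 and 1.23e-06. Ap2s1 carries a pair of the column constants, and with restored counts it fell by 0.49. Whether these lists differ from the coat genes was not tested.

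Genes whose differences between fractions, number by number, came closest to those of Cav1 or Cavin1 were ranked among 9300 genes whose log2 CPM averaged 3 or more, by the root mean square gap over the 8 numbers, with the coat genes left out of the ranking. Outside the coat, the 5 closest to Cav1 were Ctgf (0.39), Tmem204 (0.44), Ecscr (0.45), Tm4sf1 (0.47) and Tpm2 (0.49). Those closest to Cavin1 were Fam171a1 (0.36), Ctgf (0.39), Serpinh1 (0.44), Mcam (0.46) and Pik3r3 (0.50). Cav1 and Cavin1 were 0.39 apart from each other, which would place Cavin1 at rank 1 for Cav1 and Cav1 at rank 2 for Cavin1, while Cav2 was 0.92 and Cavin3 0.96 from Cav1. With restored counts only 2 of the 5 names recurred for either gene, so the names depend on the column constants.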

How the data were processed

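Gene levels came from a table of estimated counts per gene as deposited by the authors, for 16 samples. Trim Galore, STAR, RSEM and DESeq, with build mm10, are named by the submitters' processing notes, with neither versions nor roles. Annotation and use of strand are not given in the sources used here. The column constants in the size-selected values were found from the values. The authors' deposited table, per the file headers, gives a mean signal per gene, a log2 fold change, its standard error and a test score, p-values with adjusted p-values, and TPM and FPKM as group means. Of these only the log2 fold change and TPM were printed, and the other deposited columns (signal, score, p-value, FPKM) were not analysed here.

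Counts were rounded and tested with edgeR 4.0.16 in R 4.3.3: filterByExpr (minimum count 10), TMM scaling, quasi-likelihood F test, Benjamini-Hochberg adjusted p under 0.05. DESeq2 1.42.0 and voom in limma 3.58.1 were alternatives, with other scalings and filters, restored counts, the number as a block and each number left out. Ratios used log2 CPM with a prior count of 2 and all 12870 ways of assigning the labels, with 95% intervals from inverting that test. Scripts were tested on simulated data. Exon lengths and coordinates came from GENCODE M21 on GRCm38, which held 54723 of the 54838 identifiers. The genes named from lists were the 3 with the largest absolute log2 fold change of each list, and the 5 closest genes. Fyn, Nos3, Slc2a4 and Pacsin1 were added after their values were seen, and Cd36 and Scarb1 are named only to say what their list holds. The coat genes and the lists were chosen with earlier results of these data known. Library totals were 12153770 to 19944440 counts, and the standard errors also reflect the spread between samples. The Cav3 interval and the Cavin4 floor cover counting error only, and the intervals of the ratios reflect the spread between samples.

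The pairing by number comes from the titles in the labels. Same-numbered samples deviated together, with a mean correlation of 0.21 (0.12 to 0.38 over 8 pairs), against -0.03 (-0.33 to 0.23 over 56 pairs) for different numbers, so the ranges overlap.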

Additional observations from a re-analysis of the deposited data

Results flagged for a closer look

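Cav1 in size-selected sample 408 stood apart from the other 7 size-selected samples, at a log2 CPM of 6.58 against 7.72 for the next lowest and 8.73 for the highest. Its gap was 0.532 of the range, past Dixon's 95% critical value for 8 samples. Of 16 groups screened, 1 was past the value, and chance gives 0.8. The same sample had the lowest endothelial (770 CPM), smooth muscle and pericyte (669 CPM), fibroblast (1003 CPM), mesothelial (14.7 CPM) and macrophage (2747 CPM) marker sums. It was second highest for B cell (2119 CPM) and T cell (226 CPM) markers. The part of these cell types in its Cav1 level was not tested.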

How the results depend on the processing

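Over 20 alternatives, 2 of them chosen after seeing the data, all 8 coat genes stayed called higher in the size-selected samples, with log2 fold changes of 4.68 to 5.66 for Cav1, 5.07 to 5.71 for Cavin1 and 0.45 to 0.88 for Pacsin2. With no count filter 9 coat genes were called, the ninth being Cav3. The same 6 of 7 ratios to Cav1, that of Pacsin3 as a description, were called under each of 14 alternatives. Scaling by library totals moved the median of all genes from 0.05 to 0.18. With the number as a replicate block the fraction comparison called 10076 genes against 9855 and all 8 coat genes, and the pairing changed no other call on a coat gene. The interaction of sex and fraction called 3 genes under the block, 3 by DESeq2 and 0 to 1 with each number left out (1 without 445), against 0. Between the sexes in the size-selected samples DESeq2 called 22 genes against 6.

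Between the sexes in whole spleen, 26 genes were called, 273 with no filter, 521 by DESeq2 and 7 to 261 with each number left out (7 without 460, 8 without 445 or 447, 12 without 435, 17 without 407, 87 without 436 and 261 without 427). Of the coat genes, 1 was called, 0 with library totals or limma-voom, 3 with no filter or by DESeq2, and 0 to 1 with each number left out. The cause was not tested. Counts of 2 to 9 per whole spleen sample limit Pacsin3, and 0 or 1 limit Cav3.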
